A study of Macaca fascicularis with 12 samples.

Results

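Transforming growth factor beta (TGF-beta) and bone morphogenetic protein (BMP) signalling was examined in monkey iliac arteries through 10 genes, chosen by name, comprising 5 ligands (TGFB1, TGFB2, TGFB3, BMP4, BMP5), 2 receptors (TGFBR1, TGFBR2), 2 intracellular transducers (SMAD3, SMAD4) and the target gene ID1. The platform annotation paired 16 of the 53877 tested probes with exactly 1 of these symbols, 2 probes each for 6 genes and 1 probe each for TGFB1, TGFB2, BMP4 and BMP5. In all, 18160 genes had at least 1 such probe. All 16 probes were kept, and where a gene had 2 the brighter one stood for it in counts.

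The arteries came from 12 female cynomolgus monkeys (Macaca fascicularis) older than 20 years, 1 artery and 1 array per animal, and all had been fed a high fat diet for 8 years and had lived without ovaries for 4 years. There was no other treatment. The submitters sorted the arteries by plaque area into small plaque (0 to 0.113 mm2, n = 4, of which 2 had no plaque), medium plaque (0.30 to 0.542 mm2, n = 5) and large plaque (0.61 to 1.003 mm2, n = 3). Every group shares the diet and the ovary removal, so none is a lean or intact control, and the small plaque arteries serve as the baseline. Each sample was an artery biopsy and not plaque tissue alone.

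TGF-beta ligands are secreted in a latent form held in the matrix. Once released, they bind the type II receptor TGFBR2, which recruits and phosphorylates the type I receptor TGFBR1, and the receptors then phosphorylate SMAD2 and SMAD3, which enter the nucleus with the shared partner SMAD4. BMP ligands use other receptors and SMAD1, SMAD5 and SMAD9, also with SMAD4, and ID1, an inhibitor of basic helix-loop-helix transcription factors, is a well known target of that branch. In the artery wall the pathway is known for its part in smooth muscle contractile gene expression and matrix production.

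Values are log2 intensities on arrays of human probes, scaled by the authors so that the median probe of each array lay close to 0 on the log2 scale. A probe can bind monkey transcripts less well than human ones, so the tests compared animals and not the levels of different genes. Marker sums and ranks of brightness mix the levels of different probes and serve as description only. Each array gave values for 53832 to 53867 probes, and arrays correlated with r from 0.919 to 0.972 across probes, so none was a duplicate. Small replicate 4 and medium replicate 5 carry identity numbers that lie apart from those of the other animals. Cell type markers moved with plaque group. The log2 of the summed intensities of 10 macrophage markers ran from 6.07 to 6.91 in small, 7.74 to 8.67 in medium and 7.68 to 8.35 in large plaque arteries. That of 10 contractile smooth muscle markers ran from 11.0 to 11.5, 9.75 to 10.8 and 10.1 to 10.9, and that of 9 endothelial markers from 7.34 to 7.84, 6.21 to 6.93 and 6.54 to 6.99, in the same order. Such a sum is led by its brightest markers. Over single markers the median difference was 2.94 in large and 2.69 in medium for macrophage and -0.85 and -1.15 for smooth muscle. For endothelium it was only -0.19 and -0.20, with 2 and 1 of the 9 markers positive. By limma 6 of the macrophage markers were called higher in large and 7 in medium plaque arteries, and 1 and 2 of the smooth muscle markers lower. In medium 1 endothelial marker and 1 of 3 skeletal muscle markers were also called lower. The summed skeletal muscle level ran from 0.82 to 2.48 in small, -0.08 to 0.66 in medium and -0.12 to 0.91 in large plaque arteries, and that of 5 T cell markers from 3.56 to 4.83, 4.62 to 5.32 and 4.19 to 4.99. No T cell, fibroblast or adipocyte marker was called by limma. The lowest adjusted p among these was 0.0596, for a T cell marker in medium. No marker was at the floor on every array, and the probes of ACTA2 and MYH11, which encode smooth muscle actin and myosin, were brighter on average than 99.8% and 99.9% of all probes. In whole arteries, fewer cells of a type and less RNA per cell cannot be told apart.

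Of the 10 genes, TGFB1 was called higher and BMP5 lower in large than in small plaque arteries. TGFB2 and, on their brighter probes only, SMAD4 and ID1 were called lower in medium than in small plaque arteries. In medium the dimmer SMAD4 probe gave 0.18 ± 0.15 (limma adjusted p 0.562) and the dimmer ID1 probe -1.06 ± 0.30 (0.0804). No gene was called in both comparisons, and the 2 comparisons share the small plaque arteries. A gene counts as called where limma's p, after the Benjamini-Hochberg correction over the 53877 probes, is under 0.05. In large against small, 2 of 10 genes were called, 1 higher and 1 lower. The share called was 1.15% of all probes (0.948% higher, 0.197% lower) and 2.16% of genes by their brightest probe. In medium against small, 3 of 10 were called, all lower, beside 3.14% of all probes (1.97% higher, 1.17% lower) and 5.2% of genes. In large against medium, 0 of 10 were called by limma, as was no probe at all (0% of 53877), with 3 of the 10 and 5.04% of all probes at an unadjusted p under 0.05. At that unadjusted level stood 5 of 10 genes in large against small and 6 of 10 in medium against small, beside 16.1% and 18.3% of all probes. The median difference over the 10 genes was -0.57 in large against small and -0.56 in medium against small, and over all probes -0.10 and -0.09. The genes were chosen with earlier results of these data known, so these counts describe them and are no independent evidence. With small replicate 4 and medium replicate 5 both left out because of their identity numbers, the differences were 2.12 for TGFB1, -1.80 for BMP5, -0.98 for TGFB2, -0.93 for SMAD4 and -2.02 for ID1. ID1 was still called there (adjusted p 0.0382), and the other 4 had adjusted p from 0.0646 to 0.0906.

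The ligands that were called differed in direction. TGFB1, the TGF-beta ligand most studied in vascular injury and in immune cells, had log2 intensities of 0.19, 0.89, 1.11 and 0.64 in small plaque arteries, 2.51, 1.42, 2.02, 0.56 and 0.45 in medium and 2.46, 2.91 and 3.17 in large. All 3 large plaque arteries lay above all 4 small ones. In the medium group, replicates 1, 2 and 3 lay above the small arteries and replicates 4 and 5 within their range. TGFB1 averaged 2.85 ± 0.36 in large (SD, n = 3) and 0.71 ± 0.40 in small plaque arteries (SD, n = 4), a rise of 2.14 ± 0.45 log2 units (SE) or 4.41-fold, with a limma adjusted p of 0.0462. Medium plaque arteries averaged 1.39 ± 0.90 (SD, n = 5) and differed from small by 0.68 ± 0.40 (adjusted p 0.395), and large differed from medium by 1.46 ± 0.43 (adjusted p 0.829). The TGFB1 call lay close to the threshold, and was missed after quantile normalization (adjusted p 0.0507) and with a lower floor (0.0617). It was lost without any of the 4 small or the 3 large arteries and without medium replicate 2 or 3, with adjusted p from 0.0535 to 0.176 and differences from 1.97 to 2.33.

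The 2 medium arteries with low TGFB1, replicates 4 and 5, had the widest plaques of their group, 0.542 and 0.516 mm2. Their summed macrophage marker levels, 8.67 and 8.51, were the highest of the group, the other 3 medium arteries lying between 7.74 and 8.46. Their TGFB1 lay within the range of the small plaque arteries, whose macrophage levels ended at 6.91. Medium replicate 1, with a macrophage level of 8.46, had the highest TGFB1 of the group, 2.51. Whether macrophage content bears on the TGFB1 level in any of the groups was not tested.

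TGFB2, a ligand needed for heart and great vessel development, went the other way. Its log2 intensities were 5.82, 5.74, 6.14 and 6.13 in small plaque arteries, 4.83, 4.74, 5.31, 4.82 and 5.02 in medium and 5.01, 5.49 and 4.55 in large. Every artery of the medium and large groups lay below every small one. TGFB2 fell by 1.02 ± 0.21 log2 units in medium plaque arteries (SE, n = 5 and 4, adjusted p 0.0219). In large plaque arteries the difference was -0.94 ± 0.24 (adjusted p 0.0752), and large and medium differed by 0.08 ± 0.22, with a 95% interval from -0.41 to 0.56. The call in medium plaque was lost without small replicate 4, medium replicate 1 or medium replicate 4, at adjusted p from 0.052 to 0.0551, and after quantile normalization (0.0625). The difference in large plaque passed in 3 of 25 alternatives. These were without large replicate 2, at -1.18 (adjusted p 0.0422), on the log2(value + 0.5) scale (0.0389) and with bright probes only (0.0331). The lower TGFB2 came with lower summed smooth muscle and endothelial marker levels in the same arteries, whose part in it was not tested.

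TGFB3, a ligand associated with palate fusion, was not called on either probe. The brighter probe read 4.39, 4.17, 4.79 and 4.15 in small plaque arteries, 3.97, 4.20, 4.38, 4.38 and 4.08 in medium and 3.89, 4.06 and 4.14 in large. All 3 large arteries lay just below the lowest small one, while medium and small overlapped. The differences were -0.35 ± 0.19 in large (95% interval -0.77 to 0.08) and -0.18 ± 0.17 in medium plaque (-0.55 to 0.20), neither called. A much dimmer probe, in the lowest 24.5% of all probes by mean level, gave -0.74 ± 0.34 in large and -0.69 ± 0.30 in medium, also not called (adjusted p 0.311 and 0.245). It was designed on a RefSeq transcript of TGFB3 and the brighter one on another sequence. The 2 probes correlated with r = 0.38 over the 12 arteries.

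Of the 2 BMP ligands BMP5 fell in large plaque arteries and BMP4 was not called. BMP5, a ligand known for its role in skeletal patterning, had log2 intensities of -0.58, -1.36, -1.91 and -0.80 in small plaque arteries, -2.53, -1.92, -1.50, -1.46 and -2.43 in medium and -3.17, -3.17 and -2.91 in large. The 3 large arteries lay below all 9 others. BMP5 fell by 1.92 ± 0.35 log2 units in large plaque arteries (SE, n = 3 and 4, adjusted p 0.0225). Large replicates 1 and 2 were at the floor of 0.111 intensity units, so the size of this difference depends on the floor. The difference was -2.54 with a floor at percentile 1 of positive values. On the log2(value + 0.5) scale, which compresses dim values, it was -0.72. In medium against small BMP5 stood at -0.81 ± 0.30 (adjusted p 0.183) and in large against medium at -1.11 ± 0.33 (adjusted p 0.829). The call in large plaque was lost without small replicate 2 or 4 or any of the 3 large arteries, at adjusted p from 0.0524 to 0.116. The BMP5 probe was dim, in the lowest 24% of probes by mean level.

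BMP4, a ligand known for inducing inflammatory responses in endothelium, read 3.00, 1.09, 0.77 and 1.50 in small plaque arteries, 0.05, 0.77, 0.82, -0.55 and 0.62 in medium and 1.21, 1.57 and 0.52 in large. The groups overlapped, and small replicate 1 stood above all others. The difference was -1.25 ± 0.44 in medium (adjusted p 0.156) and -0.49 ± 0.50 in large plaque (adjusted p 0.683).

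**Figure D1:**
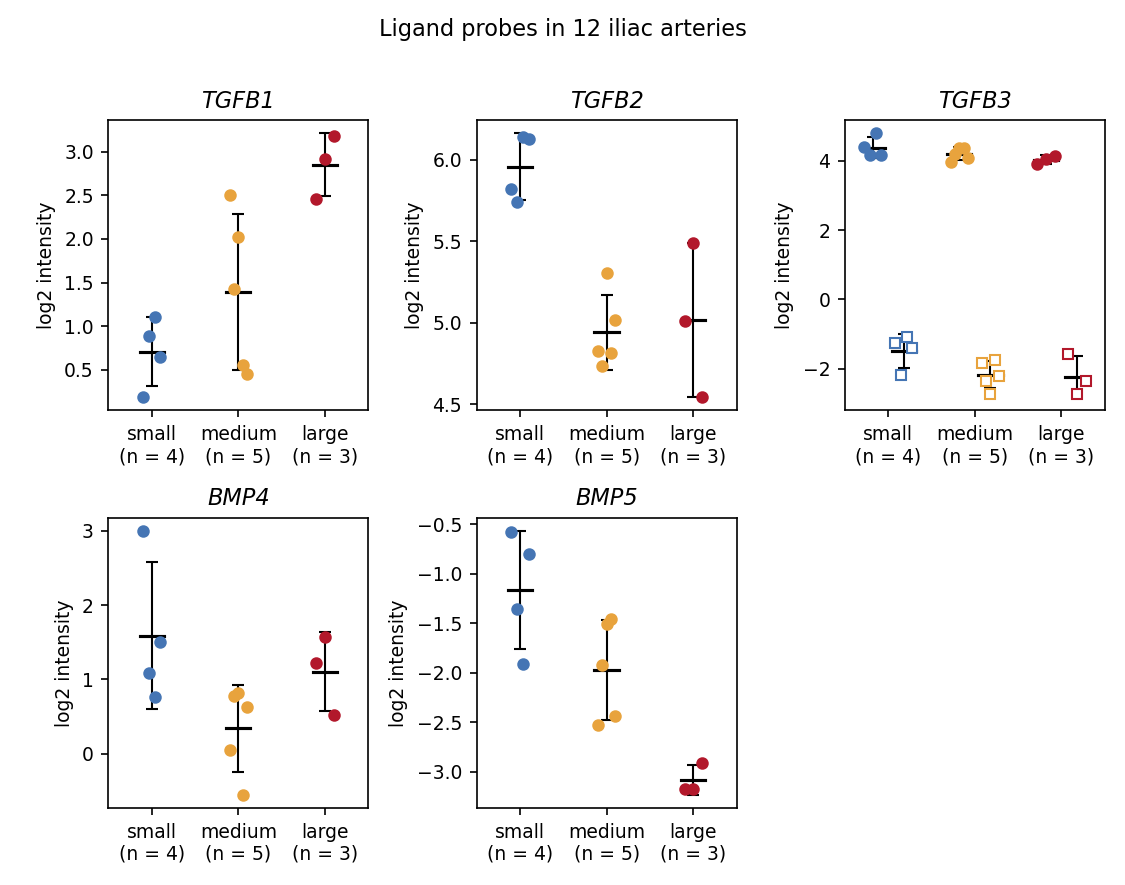
Log2 intensity (y axis) of the 5 ligand genes in small, medium and large plaque arteries (x axis), 1 point per animal with the group mean (bar) and SD (whisker). Filled circles are the brighter or only probe and open squares the dimmer TGFB3 probe. TGFB1 lies between 2.46 and 3.17 in large plaque arteries and at or below 1.11 in small, TGFB2 is at or above 5.74 in the small group and at or below 5.49 in the others, and BMP5 is lowest in large plaque arteries.

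The 3 TGFB ligands were set against each other within each animal, as the log2 intensity of one probe minus that of another. The sizes of these differences depend on the probes, so only their shift between groups was read. Each mean shift is the group difference of one ligand minus that of the other, so it is no independent evidence on either. TGFB1 minus TGFB2 averaged -2.17 ± 0.69 in large and -5.25 ± 0.37 in small plaque arteries (SD, n = 3 and 4), a shift of 3.08 or 8.47-fold in favour of TGFB1. Large arteries ran from -2.58 to -1.37 and small ones from -5.64 to -4.85, so they did not overlap. The exact two-sided permutation p was 0.0571, the smallest that 3 animals against 4 allow, and 0.103 after Benjamini-Hochberg over the 9 tests of 3 pairs in 3 comparisons. In medium plaque arteries the same difference averaged -3.55 ± 0.89 (SD, n = 5), all 5 above all 4 small ones. The shift was 1.70, with an exact permutation p of 0.0159 (0.0714 adjusted), the smallest that 5 against 4 allow. It combines a TGFB2 difference of -1.02 with a TGFB1 difference of 0.68, which was not called by limma.

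TGFB1 minus TGFB3, on the brighter TGFB3 probe, averaged -1.18 ± 0.24 in large and -3.67 ± 0.39 in small plaque arteries, a shift of 2.49 with no overlap (exact permutation p 0.0571, 0.103 adjusted). In large against medium, which averaged -2.81 ± 0.96, the shift was 1.63, again without overlap (exact permutation p 0.0357, 0.103 adjusted). With the dimmer TGFB3 probe large and medium overlapped, at 4.03 to 5.65 and 2.31 to 4.73 (exact permutation p 0.107). TGFB2 minus TGFB3 averaged 0.74 ± 0.24 in medium and 1.58 ± 0.28 in small plaque arteries, a shift of -0.84 with no overlap (exact permutation p 0.0159, 0.0714 adjusted). With the dimmer TGFB3 probe that shift was -0.33 and the medium arteries, at 6.56 to 8.02, overlapped the small ones, at 7.07 to 7.93. None of the 9 shifts passed 0.05 after adjustment. The 3 in large against small and the 3 in large against medium could not. Their smallest possible permutation p, 0.0571 and 0.0357, is too high for adjustment over the 9 tests. The 3 in medium against small could pass only if all 3 stood at their smallest possible p, 0.0159.

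**Figure D2:**
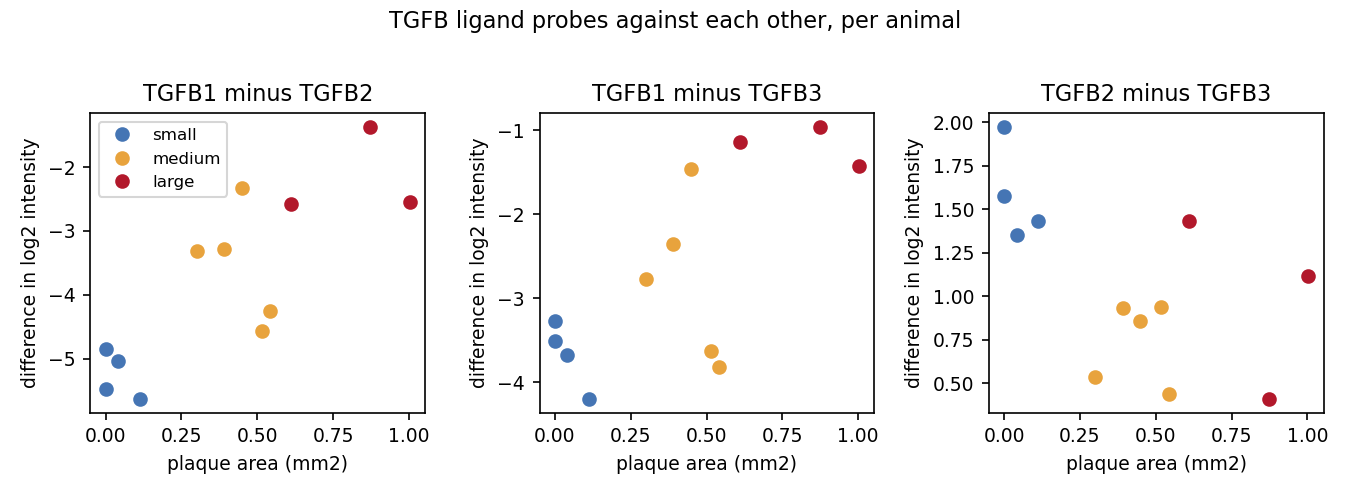
Difference in log2 intensity between pairs of TGFB ligand probes (y axis) against plaque area in mm2 (x axis), 1 point per animal, coloured by plaque group. TGFB1 minus TGFB2 is at or below -4.85 in the 4 small plaque arteries and at or above -2.58 in the 3 large ones, with the medium arteries spread from -4.56 to -2.32.

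Neither receptor was called, although the TGFBR1 difference in medium lay near the threshold. TGFBR1, the type I kinase receptor of TGF-beta, read -0.95, -3.17, -1.88 and -1.21 on its brighter probe in small plaque arteries, -0.47, -0.52, -0.66, -0.26 and -0.22 in medium and -0.38, -0.86 and -0.67 in large. All 8 arteries with medium or large plaque lay above the 4 small ones, of which replicate 2 was at the floor. The difference was 1.38 ± 0.36 in medium (adjusted p 0.0647) and 1.16 ± 0.41 in large plaque (adjusted p 0.195). The difference in medium passed without small replicate 1, at 1.66 (adjusted p 0.0344), and on the log2(value + 0.5) scale, at 0.61 (0.0311). It also passed with the floor at percentile 10, with a variance trend, with a robust trend and with array weights, at adjusted p from 0.0352 to 0.0494. The dimmer TGFBR1 probe, in the lowest 11.1% of probes, gave 0.31 ± 0.30 and 0.37 ± 0.34 with overlapping groups. The 2 probes correlated with r = 0.22 over the 12 arteries, which is a description only.

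TGFBR2, the type II receptor that binds the ligand, differed little on its brighter probe. That probe read 0.24, 0.51, 0.34 and 0.51 in small plaque arteries, 0.90, 0.69, 0.28, 0.29 and 0.16 in medium and 0.36, 0.31 and 0.05 in large, all groups overlapping. The difference was 0.07 ± 0.18 in medium (95% interval -0.33 to 0.46) and -0.16 ± 0.21 in large plaque (-0.60 to 0.29). The dimmer probe was designed on a RefSeq transcript of TGFBR2 and the brighter one on another sequence. The 2 probes correlated with r = -0.34 over the 12 arteries. The dimmer probe gave 0.67 ± 0.41 and 0.52 ± 0.46, neither called, and medium replicate 2, at -2.16, stood far below the rest of its group on it. Without that artery the dimmer probe gave 1.08 in medium plaque (adjusted p 0.0319).

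SMAD4 was called on 1 of its 2 probes only. The brighter probe of SMAD4, the partner shared by both branches, read 4.36, 3.96, 3.63 and 3.82 in small plaque arteries, 2.65, 3.17, 3.28, 3.09 and 3.06 in medium and 2.99, 3.39 and 3.15 in large. All 8 medium and large arteries lay below the 4 small ones. It fell by 0.89 ± 0.19 log2 units in medium plaque (adjusted p 0.0266), and the difference in large plaque was -0.76 ± 0.22 (adjusted p 0.109). The dimmer probe, designed on a RefSeq transcript of SMAD4 while the brighter one was designed on another sequence, ran from 0.69 to 1.20 over all 12 arteries. It differed by 0.18 ± 0.15 in medium and 0.01 ± 0.17 in large plaque. The probes correlated with r = -0.36 over the arteries, so the SMAD4 result belongs to the brighter probe alone. The call on the brighter probe was lost without small replicate 1 or 2 or medium replicate 1, 4 or 5, at adjusted p from 0.0557 to 0.07. It was also lost with only the medium and small arteries in the fit (0.0525).

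SMAD3, which carries the TGF-beta signal from the receptor, read 2.80, 4.13, 3.47 and 2.67 on its brighter probe in small plaque arteries, 2.71, 2.41, 2.69, 3.31 and 3.61 in medium and 2.40, 2.60 and 2.84 in large. The groups overlapped. The difference was -0.32 ± 0.32 in medium and -0.65 ± 0.37 in large plaque, and the dimmer probe gave -0.53 ± 0.45 and -0.39 ± 0.51, none of them called.

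ID1 averaged lowest in medium plaque arteries on both of its probes. The brighter probe read 0.59, -0.24, -0.51 and -0.43 in small plaque arteries, -2.60, -2.68, -1.34, -1.69 and -1.10 in medium and -1.32, -0.53 and -1.16 in large. No medium or large artery reached the small ones, although large replicate 2 came within 0.02 log2 units of small replicate 3. ID1 fell by 1.74 ± 0.36 log2 units, or 3.33-fold, in medium plaque arteries (SE, n = 5 and 4, adjusted p 0.0253). In large plaque the difference was -0.85 ± 0.41 (adjusted p 0.338), and large stood 0.88 ± 0.40 above medium (adjusted p 0.962).

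The dimmer ID1 probe, designed on the same transcript, gave -1.06 ± 0.30 in medium (adjusted p 0.0804) with 3 of 5 medium arteries at the floor. Without small replicate 4 it passed, at -1.29 (adjusted p 0.0437). It gave -0.14 ± 0.34 in large, and 0.92 ± 0.33 in large against medium. The 2 ID1 probes correlated with r = 0.77 over the 12 arteries. On the log2(value + 0.5) scale the brighter probe's difference in medium was -0.85, also called. The ID1 call was lost without small replicate 1 or 2 or medium replicate 1 or 4, at adjusted p from 0.0501 to 0.0609.

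**Figure D3:**
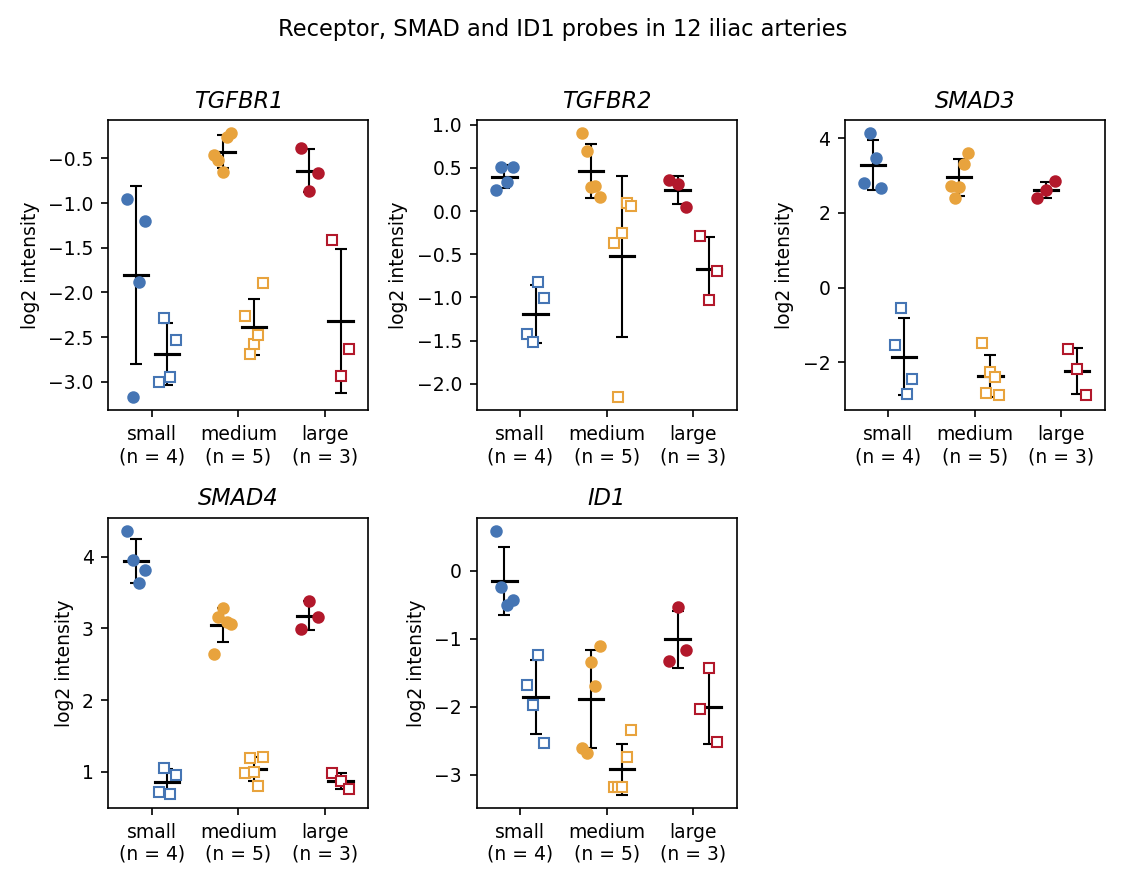
Log2 intensity (y axis) of the receptor genes, the SMADs and ID1 in small, medium and large plaque arteries (x axis), 1 point per animal with group mean (bar) and SD (whisker). Filled circles are the brighter probe and open squares the dimmer one. The brighter SMAD4 probe is at or above 3.63 in small plaque arteries and at or below 3.39 in the others, while its dimmer probe stays between 0.69 and 1.20.

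By non-overlap of the groups, 7 of the 10 genes separated large from small plaque arteries on the brighter probe, 2 higher (TGFB1, TGFBR1) and 5 lower (TGFB2, TGFB3, BMP5, SMAD4, ID1). Of all probes 14.5% did so, 5.99% higher and 8.52% lower, and 18.4% of genes by their brightest probe. In medium against small 4 separated, TGFBR1 higher and TGFB2, SMAD4 and ID1 lower, beside 8.28% of all probes (3.94% higher, 4.34% lower) and 11.1% of genes. In large against medium BMP5 alone of the 10 separated, being lower, beside 5.47% of all probes (2.53% higher, 2.93% lower) and 5.76% of genes.

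**Figure D4:**
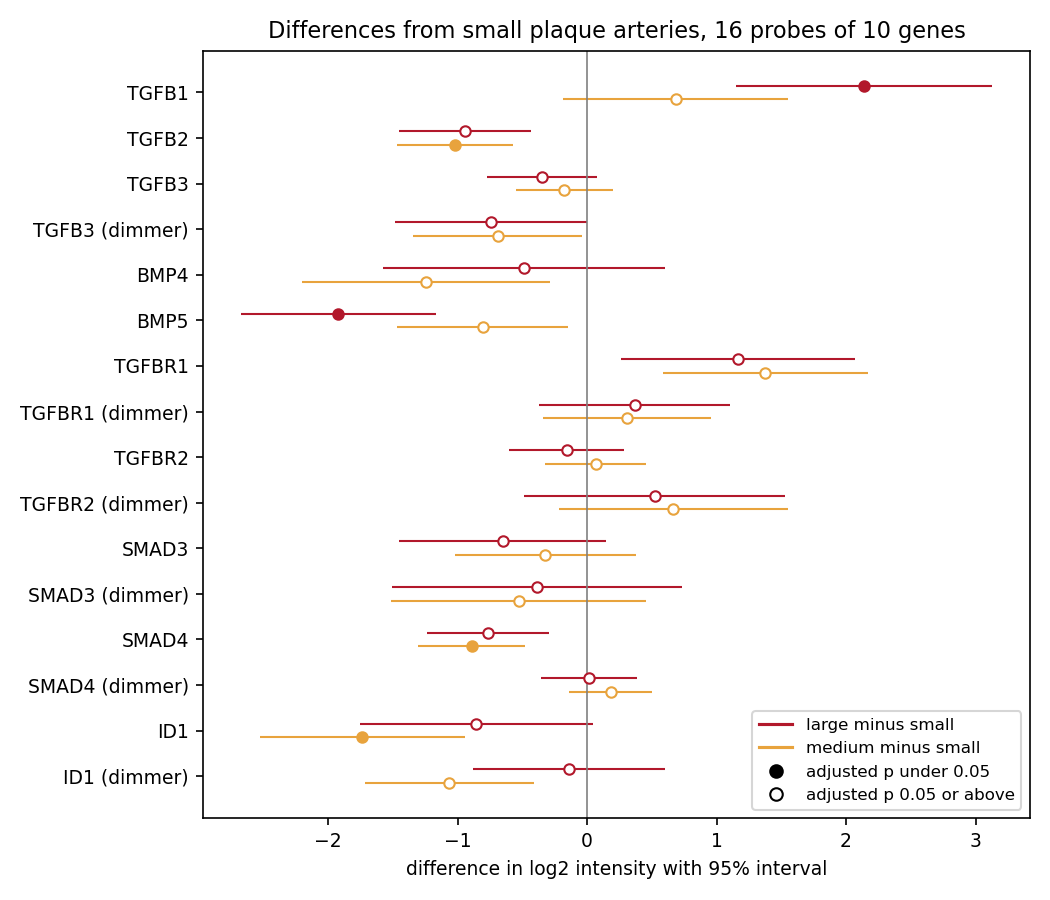
Difference in log2 intensity from small plaque arteries (x axis) with its 95% interval from limma for the 16 probes of the 10 genes (y axis), in large (red) and medium (orange) plaque arteries. Filled points have an adjusted p under 0.05. The filled points are TGFB1 at 2.14 and BMP5 at -1.92 in large plaque arteries and TGFB2 at -1.02, SMAD4 at -0.89 and ID1 at -1.74 in medium ones.

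A slope on plaque area gave a reading without the group borders. The slope of log2 intensity on area was 2.12 ± 0.66 per mm2 for TGFB1 (SE, n = 12, adjusted p 0.14), -2.13 ± 0.46 for BMP5 (adjusted p 0.0582) and -1.26 ± 0.34 for TGFB2 (adjusted p 0.102). BMP5 passed without medium replicate 1 or 4, at adjusted p of 0.0481 and 0.0475. None of the 10 genes was called by limma, 5 having an unadjusted p under 0.05, beside 15.9% of all probes. Of all probes 0.583% were called, 0.483% with a rising and 0.1% with a falling slope. Among the 8 arteries with medium or large plaque alone the slopes were 2.02 for TGFB1 and -2.03 for BMP5, close to those over 12. They were -0.17 for TGFB2, -0.03 for the brighter SMAD4 probe and 1.58 for ID1, whose slope over 12 arteries was -1.11. The lowest adjusted p among these 5 slopes within the 8 was 0.836.

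Some genes varied together over the 12 arteries. The brighter SMAD4 and ID1 probes correlated with r = 0.86, and with r = 0.69 once each group's mean was removed. BMP4 correlated with the brighter SMAD4 probe at 0.76 and 0.69 in the same way, and BMP5 with it at 0.71 and 0.69. Small replicate 1 had the highest value of the 12 arteries for BMP4, BMP5 and the brighter SMAD4 and ID1 probes. Correlations without that artery or with the dimmer SMAD4 probe were not computed. TGFB2 correlated with the brighter SMAD4 probe at 0.79 over all arteries but at 0.11 within groups, and TGFB1 with BMP5 at -0.79 and -0.31. The probes of 1 array share its RNA and its scaling.

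Among 11227 other genes with a bright probe, those most like TGFB1 over the 12 arteries were DEXI (r = 0.93), MTX1 (0.93) and CTSD (0.91), which encodes the lysosomal protease cathepsin D. Most like TGFB2 were TNFRSF10B, a death receptor (0.96), ENC1 (0.94) and KCNB2, a potassium channel (0.94). Most like SMAD4 were TOMM7, a mitochondrial import subunit (0.96), MARK1 (0.95) and ACVR2A, an activin receptor (0.95). For TGFBR1, ID1 and BMP5 11228 genes were compared. For TGFBR1 the nearest were TMEFF2 (0.93), HLA-DRB3 of MHC class II (0.93) and NCF4, a subunit of the phagocyte oxidase (0.92). For ID1 they were USP48 (0.93), CRIP1 (0.92) and GPX7 (0.91), and for BMP5 they were IL17RB (0.92), MRPL51 (0.89) and MIR9-1HG (0.87). For TGFB3 they were ANKRD39 (0.97), SLC18A2 (0.96) and PRKCZ-DT (0.96), and for BMP4 NEIL1 (0.94), CBX7 (0.94) and OAZ2 (0.94). For TGFBR2 they were DDX10 (0.90), BLZF1 (0.86) and SEC24C (0.85), and for SMAD3 CHAF1B (0.88), ALDH1L1 (0.85) and ZFAT (0.83). These are the highest of all correlations computed and carry no test.

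The rest of the pathway was read from 7 lists with 91 genes measured, each by its brightest complete probe. In large against small 1 rose and 2 fell, beside 1.15% of all probes and 2.16% of genes called. In medium against small 1 rose and 3 fell, beside 3.14% and 5.2%. At an unadjusted p under 0.05 stood 19 and 26 of the 91, beside 16.1% and 18.3% of all probes. The limma comparison of large with medium called none of the 91, with 7 at an unadjusted p under 0.05, beside 5.04% of all probes. The median differences over the 91 genes were -0.13 in large and -0.15 in medium against small, beside -0.10 and -0.09 over all probes.

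GDF15, a stress-induced relative of the TGF-beta ligands, was the gene that rose, by 5.46 ± 0.48 in large (adjusted p 0.00092) and 5.47 ± 0.42 in medium plaque arteries (adjusted p 0.000128). Both calls held without each of the 12 animals in turn. The slope of GDF15 on plaque area, 6.75 ± 1.36 per mm2, was also called (adjusted p 0.0469). That call was lost without any of 8 animals, at adjusted p from 0.0607 to 0.152. Among the 8 arteries with medium or large plaque alone the slope was 0.47 and was not called. The other 19 genes of the ligand list, which includes the protease gene BMP1, had none called.

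Among extracellular inhibitors FST was called in both comparisons. FST encodes follistatin, which binds and neutralises activins and some BMPs, and its brighter probe read 5.46, 4.72, 4.57 and 5.05 in small plaque arteries, 2.30, 2.81, 3.82, 3.66 and 3.05 in medium and 3.68, 3.25 and 2.50 in large. No medium or large artery overlapped the small ones. FST fell by 1.82 ± 0.34 in medium (adjusted p 0.0148) and by 1.81 ± 0.39 in large plaque arteries (adjusted p 0.0477). In medium its call held without each of the 12 animals in turn but not without small replicate 4 and medium replicate 5 together (adjusted p 0.073). In large it was lost without any animal other than medium replicate 1 or 3, at adjusted p from 0.0516 to 0.186, and after quantile normalization, with the lower floor or with only the groups compared (0.0571 to 0.0633). The dimmer FST probe gave -1.39 ± 0.44 in medium and -1.37 ± 0.50 in large, not called. Over the 13 inhibitors the median difference was -0.33 in medium and -0.39 in large, with 4 and 2 positive.

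SMAD5, a transducer of the BMP branch, fell by 1.15 ± 0.25 in large plaque arteries (adjusted p 0.0476) and stood at -0.83 ± 0.21 in medium (adjusted p 0.059), and its slope of -1.46 ± 0.28 per mm2 was called (adjusted p 0.0418). Its other probe gave 1.10 ± 1.51 in large and -1.04 ± 1.32 in medium, with single arteries as far apart as -0.35 and 5.64. The difference in medium passed without large replicate 2 (adjusted p 0.0498). The call in large plaque was lost without any of 9 animals, at adjusted p up to 0.22, and stood without small replicate 1, medium replicate 1 or large replicate 2. It was also lost after quantile normalization (0.0699), with the lower floor (0.059) and with only the groups compared (0.102). The slope was no longer called without any of 9 animals, at adjusted p from 0.0544 to 0.14, and stood without medium replicate 1, 2 or 4. None of the other 17 SMADs and intracellular regulators was called on its brightest probe. The other probe of FKBP1A, whose product binds the type I receptor, was called, and is named here after its values were seen. It rose by 1.53 ± 0.31 in large (adjusted p 0.0372) and 1.44 ± 0.27 in medium (0.0148), where the brightest probe gave -0.26 ± 0.19 and 0.05 ± 0.17. Over the list by brightest probe the median was -0.01 in large and -0.18 in medium.

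ACVR2A, a type II receptor for activins and BMPs, fell by 0.93 ± 0.21 in medium plaque arteries (adjusted p 0.0365) and stood at -0.79 ± 0.24 in large (adjusted p 0.136). Its other probe gave -0.61 ± 0.21 and -0.46 ± 0.24, not called. Among 5 type I receptors none was called, ACVR1 standing at 1.28 ± 0.39 in medium and 1.21 ± 0.44 in large and ACVRL1, an endothelial receptor for BMP9, at 0.82 ± 0.32 and 0.30 ± 0.37. Without small replicate 4 ACVR1 passed in medium, at 1.68 (adjusted p 0.0257).

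Of 16 measured targets TSC22D1, a leucine zipper protein induced by TGF-beta, was called, falling by 0.96 ± 0.22 in medium plaque arteries (adjusted p 0.0337), and stood at -0.47 ± 0.25 in large. Neither of its 2 dimmer probes was called in medium (adjusted p 0.695 and 0.0568). The calls of ACVR2A and TSC22D1 were each lost without small replicate 1 or 2, medium replicate 1, 4 or 5 or large replicate 1, and that of ACVR2A also without small replicate 3 and that of TSC22D1 without small replicate 4, at adjusted p from 0.0505 to 0.0848. Both were lost after quantile normalization (0.0616 and 0.0634), ACVR2A also with array weights (0.0612) and TSC22D1 with only the groups compared (0.0709).

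None of 10 latent TGF-beta binding and activation genes was called, with LTBP2 at -1.01 ± 0.35 and FBN1, fibrillin 1, at -0.50 ± 0.22 in medium plaque arteries, and list medians of 0.32 in large and 0.01 in medium. In large the lowest adjusted p of that list was 0.187, for LTBP3 at 1.92 ± 0.67, which is named after its values were seen. The relatives of ID1, chosen for naming after their values were seen, were not called either. On the brightest probe ID2 stood at -0.23 ± 0.28, ID3 at 0.58 ± 0.87 and ID4 at -1.33 ± 0.38 in medium plaque, and at -0.07 ± 0.32, 1.38 ± 0.99 and -0.93 ± 0.44 in large. The same holds for TGFBI, a matrix protein named for its induction by TGF-beta, at -0.57 ± 0.30 in medium and -0.97 ± 0.34 in large, and for the inhibitory SMAD7 at 0.24 ± 0.14 and 0.16 ± 0.16.

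**Figure D5:**
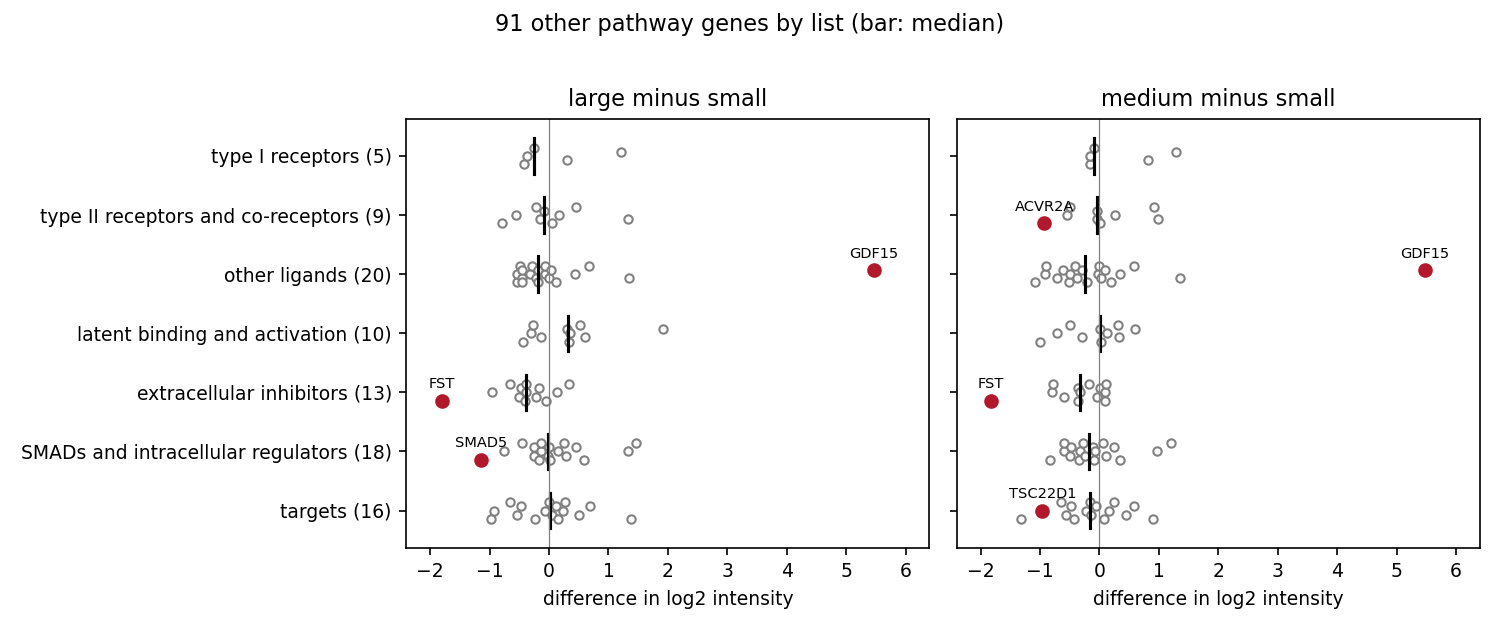
Difference in log2 intensity from small plaque arteries (x axis) of 91 other pathway genes, in rows by list (number of genes in brackets), for large (left panel) and medium (right panel) plaque arteries. Red points have an adjusted p under 0.05 and are named, open points do not, and bars are list medians. GDF15 stands at 5.46 and 5.47, and FST at -1.81 and -1.82.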

How the data were processed

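From the RNA of each of 12 arteries, labelled cRNA was made and read in 1 colour on a CodeLink human array, per the labels' protocols. The deposited values are linear intensities that the authors scaled to an array median of 1.00 to 1.01; some lie below 0, as background subtraction leaves them. The sources used here give neither the image software nor the formula of that scaling.

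Of 54359 probes, 479 were empty and 53877 with at least 2 values per group were tested. Intensities under the 5th percentile of positive values, 0.111, were set to it (5.45% of values) and log2 taken. Each probe was fitted with limma 3.58.1 in R 4.3.3, with 3 group means over all 12 arrays, and with a slope on plaque area, no plaque entered as 0. P-values are two-sided and adjusted by Benjamini-Hochberg over all probes, with a threshold of 0.05. The fits were tested on simulated data. Symbols come from the platform annotation; all 10 occur in the macaque annotation T2T-MFA8v1.1, used for names only.

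Named were the 10 genes with every probe, list genes called in any comparison or otherwise the 2 of smallest p in medium against small, and the most correlated genes. The genes and lists were chosen with earlier results of these data known. DCN and TAGLN each stand in 2 lists, DCN as an extracellular inhibitor and a fibroblast marker, TAGLN as a target and a contractile smooth muscle marker. Alternatives covered normalization, floor, probes kept, variance model, array weights, samples in the fit, area scale, replicate number as a block and animals left out. The number of arrays limits the precision.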

Additional observations from a re-analysis of the deposited data

Results flagged for a closer look

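On the dimmer TGFBR2 probe medium replicate 2 had a log2 intensity of -2.16, while the other 4 medium plaque arteries lay between -0.37 and 0.10. The gap to its nearest neighbour was 0.792 of the group's whole range, above the critical value of Dixon's test for 5 samples. On the brighter TGFBR2 probe the same artery read 0.69, within its group. This was the only 1 of 32 groups examined over the 16 probes to stand out so, and chance alone gives about 1 in 20.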

How the results depend on the processing

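With large against small plaque, 617 probes were called, and 1227 on the log2(value + 0.5) scale, 1397 with bright probes only, 1107 with a variance trend, 1161 with a robust trend, 1338 with array weights, 379 with only the groups compared and 316 without both animals whose numbers lie apart. With medium against small the count was 1693, and 773 without those 2 animals. With large against medium it was 0, and 1 after quantile normalization, 3 with array weights and 4 with only the groups compared. The slope on area called 314 probes, 174 with the floor at percentile 1, 509 at percentile 10, 866 on the log2(value + 0.5) scale, 1121 with bright probes only, 778 with a trend, 777 with a robust trend, 1586 on the square root of area, 0 over only the 8 arteries with medium or large plaque, and 0 without both animals. Leaving out 1 animal at a time gave 112 to 1216 (large against small), 847 to 1567 (medium against small), 0 to 3 (large against medium) and 0 to 746 (slope).

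Of the 10 genes 2 were called in large against small, 1 after quantile normalization or with the floor at percentile 1, 3 on the log2(value + 0.5) scale or with bright probes only, and 0 without both animals. In medium against small 3 were called, 1 without both animals, 1 on the dimmer probes, 2 after quantile normalization, with bright probes or with only the groups compared, and 4 with the floor at percentile 10, on the log2(value + 0.5) scale, with a trend, a robust trend or array weights. The slope called 0, 1 with a trend, a robust trend or array weights, and 3 on the square root of area. Without 1 animal at a time the counts were 0 to 2, 0 to 3 and 0 to 1. The 9 ligand shifts kept their direction under quantile normalization, both other floors, the dimmer TGFB3 probe and each single animal left out. None passed 0.05 there after adjustment. Those of large against small or medium could not pass in any setting. Those of medium against small could pass only with all arteries of both groups kept. Of 2518 values of single probes under alternatives 73 had the opposite sign, all of differences that were not called. The causes of these moves were not tested.

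The replicate numbers do not pair samples: the arteries are of different animals, and deviations of same-numbered arteries correlated between -0.16 and 0.22. With the replicate block, 448 probes were called in large against small, 866 in medium against small, 0 in large against medium and 0 by the slope, and 0 of the 10 genes in either comparison with small. Precision is limited by 3 to 5 arrays a group, and for the probes of BMP5, ID1 and TGFBR1 also by values near the floor.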
